A study of Mus musculus with 24 samples.

Results

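Haematopoietic clones were followed by lentiviral DNA barcodes, counted by amplicon sequencing in sorted blood cells and tissue macrophages of 3 mice. The barcodes described are 61 that were found in all 8 populations of a mouse and were at least 4-fold richer in its blood lymphocytes than in its blood myeloid cells. They came from 157 barcodes found in all 8 populations, and from 1064 that reached 0.1% of reads in at least 1 population of a mouse. They were chosen by their measured shares, the percentages of all reads of a sample. A barcode counted as found at 0.01% of a sample's reads or more. It was taken as lymphoid-rich when the mean of its B cell and T cell shares was at least 4 times the mean of its monocyte and neutrophil shares. Mouse 1 had 27 such barcodes of 67 found in all 8 populations, mouse 2 had 19 of 50 and mouse 3 had 15 of 40. No barcode was chosen in more than 1 mouse.

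Per the labels, haematopoietic stem cells from the bone marrow of C57BL/6 mice were cultured, infected on day 5 with the barcoding lentivirus pBC008 and sorted 4 days later as GFP+LinSca1+cKit+ cells, where GFP marks an infected cell. Male CD45.2 recipients aged 5 weeks had whole-body irradiation of 9 Gy and received 20000 of these cells with 100000 CD45.2+ LincKit+Sca1- rescue cells. All samples are of strain C57BL/6J and were taken 2 months later. The 8 groups, with 1 sample per mouse each, were M2 macrophages of the kidney, Ccr2hi and Ccr2lo macrophages of the heart, M1 macrophages of the kidney, and B cells, T cells, monocytes and neutrophils of the blood. The labels name no markers for the M1 and M2 sorts and no cell numbers, there is no untransplanted group, and barcode counts hold no marker genes that could check a cell type.

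A stem cell that takes up a barcode passes it to all its descendants, so cells of different types that carry the same barcode descend from a common founder, or from founders that took up the same sequence. Monocytes and neutrophils are short-lived and are renewed from myeloid progenitors. B cells mature in the bone marrow and T cells in the thymus, and both can persist and divide in the periphery. Ccr2 is the chemokine receptor that monocytes use to leave the marrow, and Ccr2-high heart macrophages are classically replenished from monocytes, while Ccr2-low heart macrophages and many kidney macrophages can maintain themselves in the tissue. Rescue cells and surviving host cells carry no barcode and give no reads.

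Each barcode is named here by its mouse and by its rank among the lymphoid-rich barcodes of that mouse, ordered by the mean share over the 4 macrophage subsets, so that Lym3-01 led in mouse 3. The sequences below are the 4 leading barcodes of each mouse, followed by 1 barcode of each mouse whose M2 share was lowest relative to M1 and by Lym3-06, with the highest such ratio in mouse 3. They are printed 5′ to 3′ as deposited, and a capital marks a base that breaks the alternation of G or C at odd and A or T at even positions.
Lym1-01: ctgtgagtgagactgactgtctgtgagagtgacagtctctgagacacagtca
Lym1-02: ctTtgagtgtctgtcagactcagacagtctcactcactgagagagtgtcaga
Lym1-03: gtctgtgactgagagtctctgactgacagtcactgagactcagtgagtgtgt
Lym1-04: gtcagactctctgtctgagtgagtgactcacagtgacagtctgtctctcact
Lym2-01: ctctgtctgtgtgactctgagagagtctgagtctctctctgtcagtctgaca
Lym2-02: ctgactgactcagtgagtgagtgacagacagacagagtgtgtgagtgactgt
Lym2-03: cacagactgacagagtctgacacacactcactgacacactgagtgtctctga
Lym2-04: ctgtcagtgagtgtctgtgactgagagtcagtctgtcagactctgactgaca
Lym3-01: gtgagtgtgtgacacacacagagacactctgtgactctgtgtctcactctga
Lym3-02: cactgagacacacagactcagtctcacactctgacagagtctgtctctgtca
Lym3-03: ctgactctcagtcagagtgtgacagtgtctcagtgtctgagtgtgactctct
Lym3-04: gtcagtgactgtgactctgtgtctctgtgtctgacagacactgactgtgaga
Lym1-16: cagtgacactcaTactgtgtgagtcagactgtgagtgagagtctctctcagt
Lym2-19: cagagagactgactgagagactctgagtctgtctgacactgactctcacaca
Lym3-15: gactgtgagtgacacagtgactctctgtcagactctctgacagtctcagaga
Lym3-06: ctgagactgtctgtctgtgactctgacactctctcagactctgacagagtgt
They are synthetic and have no position in the mouse genome, and where each one integrated was not analysed here.

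The 61 sequences are distinct barcodes and not copies of one another. All are 52 bases long, 30 begin with C and 31 with G, and members of the same mouse differ from each other at 17 to 37 positions (median 26). The nearest barcode that reached 0.1% anywhere in the same mouse was 13 to 18 mismatches away. The alternating pattern was complete in 54 members, against 141 of all 157 barcodes found in all 8 populations. The other 7 members break it at 1 position each, and in all 7 the base is a T at an odd position, as in Lym1-02 and Lym1-16.

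The samples held 6808221 to 15745444 reads, so that 0.01% corresponded to 681 to 1575 reads. The fewest reads of a member were 681, for Lym1-20 in neutrophils of mouse 1 (Wilson 95% interval of the share 0.00928% to 0.0108%). The most were 1934737, for Lym3-01 in T cells of mouse 3 (15.3%, Wilson 95% interval 15.2440% to 15.2836%). These intervals cover counting error only, since PCR copies were counted and no molecular identifiers were used. Each member was compared within the 1 mouse in which it was chosen, so a comparison of populations for a single barcode has 1 sample per group and no replicate check. In the other mice 56 of the 61 members stayed under 0.1% in every sample, and Lym3-04 was the one that came near the level of a member in another mouse, with 0.465% of Ccr2hi and 0.534% of T cell reads in mouse 1. Medians and sums are therefore given per mouse, and as mean and SD over the 3 mice, without a p-value.

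The values that chose the barcodes are described first, and they are no evidence of a lymphoid bias. The ratio of lymphoid to myeloid mean shares was 4.12 to 43.4 with a median of 14.2, and 44 of the 61 members exceeded 8-fold. The members just inside the limit were Lym1-18 at 4.61, Lym2-08 at 5.72 and Lym3-14 at 4.12, and the barcodes just outside it had ratios of 3.48, 3.97 and 3.40 in mice 1, 2 and 3. The members nearest the limit of presence were Lym1-20 in neutrophils (681 reads), Lym2-08 in M1 macrophages (0.0106%) and Lym3-14 in M1 macrophages (0.0105%). The nearest barcodes outside that limit failed it in M1 macrophages of each mouse, at 0.00955%, 0.00975% and 0.00953%. Of 612 barcodes that passed the lymphoid ratio and reached 0.1% somewhere, 61 were found in all 8 populations and 64 missed the limit in just 1 population, which was M1 macrophages for 41 of them, neutrophils for 10, T cells for 5 and monocytes for 4. All 61 members lay well above the limit of 0.1% in their highest population, where the lowest was 0.411%, for Lym3-14 in Ccr2hi macrophages.

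Many members were led by 1 lymphoid type. The rule took the mean of the B and T cell shares, so 1 high lymphoid share was enough to be chosen. The split below was not counted over all 157 barcodes found in all 8 populations. T cells exceeded B cells by over 4-fold in 28 members, B cells exceeded T cells by over 4-fold in 11, and 22 lay within 4-fold. The T-led members came from all 3 mice, 16 from mouse 1, 7 from mouse 2 and 5 from mouse 3, whereas of the B-led members 4 came from mouse 2, 7 from mouse 3 and 0 from mouse 1. The members together held 47.6%, 38.2% and 58.1% of T cell reads and 13.9%, 20.7% and 30.1% of B cell reads in mice 1, 2 and 3. They held 3.81%, 1.96% and 3.61% of monocyte reads and 1.86%, 1.32% and 3.28% of neutrophil reads. In 22 members B cells and T cells each reached 4 times the myeloid mean on their own.

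In macrophages the members divided the subsets into M1 on one side and M2, Ccr2hi and Ccr2lo on the other. Their summed share of reads was 4.75%, 7.80% and 9.62% in M2 macrophages, 6.37%, 7.68% and 16.2% in Ccr2hi, 5.83%, 7.93% and 12.5% in Ccr2lo, and 1.06%, 0.682% and 1.38% in M1 macrophages of mice 1, 2 and 3. Means were 7.39% ± 2.46 in M2, 10.1% ± 5.34 in Ccr2hi, 8.74% ± 3.39 in Ccr2lo and 1.04% ± 0.348 in M1 macrophages (SD, n = 3 mice each). The M1 value lay below the other 3 in each mouse, and the values of M2, Ccr2hi and Ccr2lo overlapped between mice. Mouse 3 had the highest sum in each of the 4 subsets.

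The share of a single member ranged widely within a subset. It was 0.0152% to 1.32% with a median of 0.274% in M2, 0.0295% to 2.13% with a median of 0.379% in Ccr2hi, 0.0196% to 1.62% with a median of 0.361% in Ccr2lo, and 0.0105% to 0.385% with a median of 0.0282% in M1 macrophages. In M1 macrophages 54 of 61 members lay under 0.1%, and 19 under 0.02%, close to the limit of presence that the choice imposed. M1 was the lowest of the 4 subsets in 57 members, Ccr2lo in 3 and M2 in 1. The highest was Ccr2hi in 29 members, Ccr2lo in 19 and M2 in 13, and M1 was the highest in 0. How often M2, Ccr2hi or Ccr2lo was the highest was not counted over the 157 barcodes found in all 8 populations. Ccr2hi exceeded Ccr2lo in 37 of 61 members, against 116 of the 157, so a lead of Ccr2hi over Ccr2lo was not particular to the members.

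Members were among the leading barcodes of some macrophages. In mouse 3 they were 3 of the 10 most abundant barcodes of M2, 5 of Ccr2hi and 5 of Ccr2lo macrophages, and a member, Lym3-04, ranked 1 in Ccr2lo. In mice 1 and 2 they were 0 of the 10 in M2 and Ccr2hi and 1 of the 10 in Ccr2lo macrophages. No member was among the 10 of M1 macrophages, monocytes or neutrophils in any mouse. The most abundant member of M1 macrophages ranked 42, 31 and 22 in mice 1, 2 and 3.

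The 4 leading members of mouse 1 differed in which lymphocytes they filled, and each had its lowest macrophage share in M1. Lym1-01 had 0.866% of M2, 0.566% of Ccr2hi, 0.609% of Ccr2lo and 0.0319% of M1 reads, with 0.651% of B cell, 0.319% of T cell, 0.0362% of monocyte and 0.0568% of neutrophil reads. It was higher in M2, 27.1-fold over M1, than in any blood population. Lym1-02 had 0.291% of M2, 0.484% of Ccr2hi, 0.527% of Ccr2lo and 0.0291% of M1 reads, with 0.121% of B cell, 2.43% of T cell, 0.153% of monocyte and 0.0375% of neutrophil reads. Lym1-03 had 0.286% of M2, 0.499% of Ccr2hi, 0.460% of Ccr2lo and 0.0439% of M1 reads, with 0.751% of B cell, 4.33% of T cell, 0.225% of monocyte and 0.147% of neutrophil reads. Both were led by T cells, and their heart macrophage shares lay between the T cell and monocyte shares. Lym1-04 had 0.425% of M2, 0.465% of Ccr2hi, 0.234% of Ccr2lo and 0.147% of M1 reads, with 2.41% of B cell, 7.32% of T cell, 0.813% of monocyte and 0.461% of neutrophil reads. It was the most abundant T cell barcode of the mouse, and its share in each macrophage subset was below that in monocytes.

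In mouse 2 the leading members were low in M1 macrophages, except for Lym2-02. Lym2-01 had 0.854% of M2, 0.795% of Ccr2hi, 1.24% of Ccr2lo and 0.0132% of M1 reads, with 1.10% of B cell, 0.280% of T cell, 0.0876% of monocyte and 0.0282% of neutrophil reads. Its M2 share was 64.8-fold its M1 share, the highest ratio among the 61. Lym2-02 had 1.01% of M2, 0.952% of Ccr2hi, 0.668% of Ccr2lo and 0.206% of M1 reads, with 2.42% of B cell, 5.11% of T cell, 0.306% of monocyte and 0.200% of neutrophil reads. Its M1 share was the highest of the mouse's members and close to its neutrophil share. Lym2-03, led by T cells, had 0.450% of M2, 0.497% of Ccr2hi, 0.616% of Ccr2lo and 0.0277% of M1 reads, with 0.0723% of B cell, 1.96% of T cell, 0.0267% of monocyte and 0.0540% of neutrophil reads. Lym2-04 had 0.625% of M2, 0.536% of Ccr2hi, 0.398% of Ccr2lo and 0.0152% of M1 reads, with 0.197% of B cell, 0.496% of T cell, 0.0618% of monocyte and 0.0327% of neutrophil reads. For Lym2-04, M2 macrophages exceeded each of the 4 blood populations.

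Mouse 3 held the most abundant members, and the pair at the top had nearly the same profile. Lym3-01 had 1.32% of M2, 2.00% of Ccr2hi, 1.40% of Ccr2lo and 0.385% of M1 reads, with 2.40% of B cell, 15.3% of T cell, 0.935% of monocyte and 0.974% of neutrophil reads. Lym3-02 had 1.31% of M2, 2.06% of Ccr2hi, 1.32% of Ccr2lo and 0.361% of M1 reads, with 2.32% of B cell, 14.8% of T cell, 0.911% of monocyte and 1.02% of neutrophil reads. The ratio of the pair varied by 1.12-fold over the 8 populations, although the sequences differ at 24 positions. Only 1 other pair among the 627 pairs of members of one mouse stayed within 1.5-fold, Lym1-06 with Lym1-09, whose ratio varied by 1.31-fold and whose sequences differ at 21 positions. Members of such a pair are not independent observations.

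The next members of mouse 3 were led by B cells. Lym3-03 had 0.981% of M2, 2.13% of Ccr2hi, 1.45% of Ccr2lo and 0.136% of M1 reads, with 9.85% of B cell, 2.61% of T cell, 0.459% of monocyte and 0.308% of neutrophil reads, and was the most abundant B cell barcode of the mouse. Lym3-04 had 0.856% of M2, 2.05% of Ccr2hi, 1.62% of Ccr2lo and 0.0654% of M1 reads, with 3.34% of B cell, 0.661% of T cell, 0.136% of monocyte and 0.0728% of neutrophil reads. Lym3-06 had 1.22% of M2, 1.27% of Ccr2hi, 0.942% of Ccr2lo and 0.0226% of M1 reads, with 0.556% of B cell, 0.0196% of T cell, 0.115% of monocyte and 0.0232% of neutrophil reads. Its M2 share was 53.9-fold its M1 share and above its share in each blood population. Lym3-05, chosen for naming after its values were seen, had 0.620% of M2, 2.08% of Ccr2hi, 1.49% of Ccr2lo and 0.0419% of M1 reads but 0.273% of B cell, 0.144% of T cell, 0.0165% of monocyte and 0.0149% of neutrophil reads. Its Ccr2hi share was 126-fold its monocyte share.

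A T cell barcode could be large without being large in macrophages. Lym3-15 had 0.0992% of M2, 0.0295% of Ccr2hi, 0.0208% of Ccr2lo and 0.0941% of M1 reads, beside 0.123% of B cell, 14.9% of T cell, 0.313% of monocyte and 0.249% of neutrophil reads. Lym2-19 had 0.0340% of M2, 0.0669% of Ccr2hi, 0.0196% of Ccr2lo and 0.0264% of M1 reads, beside 0.0747% of B cell, 3.76% of T cell, 0.0989% of monocyte and 0.120% of neutrophil reads. Lym1-27, the member with the highest lymphoid to myeloid ratio in mouse 1, had 0.0152% of M2, 0.0452% of Ccr2hi, 0.0439% of Ccr2lo and 0.0139% of M1 reads, beside 0.0959% of B cell, 2.54% of T cell, 0.0337% of monocyte and 0.0270% of neutrophil reads. For these 3 members M2 exceeded M1 by only 1.05-fold, 1.29-fold and 1.10-fold. Lym1-16 was the single member with less in M2 (0.0501%) than in M1 macrophages (0.0667%), and had 0.107% of Ccr2hi and 0.167% of Ccr2lo reads, beside 0.0406% of B cell, 1.87% of T cell, 0.0557% of monocyte and 0.0730% of neutrophil reads.

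The other members with the highest lymphoid to myeloid ratio of their mouse were more alike in the 3 richer subsets. Lym2-18, with a ratio of 34.3, had 0.138% of M2, 0.178% of Ccr2hi, 0.203% of Ccr2lo and 0.0128% of M1 reads, with 0.754% of B cell, 2.29% of T cell, 0.0425% of monocyte and 0.0461% of neutrophil reads. Lym3-12, with a ratio of 31.8, had 0.416% of M2, 0.397% of Ccr2hi, 0.219% of Ccr2lo and 0.0447% of M1 reads, with 2.48% of B cell, 0.113% of T cell, 0.0393% of monocyte and 0.0422% of neutrophil reads. The members just inside the limit also had their lowest macrophage share in M1, with 0.0232% for Lym1-18, 0.0106% for Lym2-08 and 0.0105% for Lym3-14, against 0.0722% to 0.169%, 0.270% to 0.615% and 0.101% to 0.411% in the other 3 subsets.

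Over all members, M2 exceeded M1 macrophages of the same kidneys. The median fold of M2 over M1 was 3.42 in mouse 1, 16.3 in mouse 2 and 10.7 in mouse 3, a mean log2 ratio of 3.07 ± 1.16 (SD, n = 3 mice). M2 exceeded M1 in 60 of 61 members, by over 4-fold in 42 (68.9%), and M1 exceeded M2 by over 2-fold in 0. Among all 157 barcodes found in all 8 populations, 31.8% were over 4-fold higher in M2 and 43.9% over 2-fold lower. A wider background was near the members' share. Of 599 barcodes with at least 0.1% in M2 or M1 of a mouse, 79.5% were over 4-fold higher in M2. Of the 48 members with that level, 41 (85.4%) were. Each of the 48 met the level in M2, while 54 of all 61 members lay under 0.1% in M1 macrophages. The level thus admitted members through M2, where they were high, so this share describes them and tests nothing. By mouse the count of members over 4-fold higher in M2 was 13 of 27, 17 of 19 and 12 of 15.

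The other barcodes found in all 8 populations had the opposite median. Their median log2 ratio of M2 over M1 was -2.32 ± 0.343 in the 43 myeloid-rich barcodes, those with a myeloid mean at least 4 times the lymphoid mean, and -1.24 ± 0.694 in the 53 balanced barcodes (SD, n = 3 mice each). M1 was the lowest macrophage subset in 57 of 61 lymphoid-rich, 1 of 43 myeloid-rich and 13 of 53 balanced barcodes. The choice used the monocyte shares, and over whole repertoires M1 macrophages lay near monocytes. The overlap of the M1 and monocyte repertoires, obtained by adding up the smaller of the shares of each barcode, was 0.856, 0.918 and 0.912 in mice 1, 2 and 3. How far the choice sets the ratio of M2 over M1 was not tested. Shares also sum to 100% in a sample, and in M1 macrophages the myeloid-rich and the balanced barcodes held 50.2% ± 6.98 and 41.6% ± 8.13 of reads (SD, n = 3 each). In M2, Ccr2hi and Ccr2lo macrophages the myeloid-rich barcodes held means of 9.45%, 9.33% and 6.90%. The balanced barcodes held 17.1%, 16.5% and 12.5% there, beside 7.39%, 10.1% and 8.74% for the lymphoid-rich.

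Ccr2hi and Ccr2lo macrophages of the heart held the members at nearly equal levels. The median fold of Ccr2hi over Ccr2lo was 1.08, 0.921 and 1.28 in mice 1, 2 and 3, a mean log2 ratio of 0.12 ± 0.237 (SD, n = 3), and without mouse 3 the mean was -0.000551. Ccr2hi was over 2-fold higher in 4 of 61 members (6.56%) and over 2-fold lower in 0, against 8.28% and 2.55% of the 157 barcodes found in all 8 populations, so the members lay near the background. The largest fold was 3.42, in Lym2-19. The mean log2 ratio was 0.32 ± 0.0849 in the myeloid-rich and 0.40 ± 0.277 in the balanced barcodes (SD, n = 3 each).

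M2 macrophages of the kidney and Ccr2lo macrophages of the heart were also close for most members. The median fold of M2 over Ccr2lo was 0.773, 1.08 and 0.704 in mice 1, 2 and 3, a mean log2 ratio of -0.26 ± 0.324 (SD, n = 3). M2 was over 2-fold lower in 11 members (18.0%) and over 2-fold higher in 1 (1.64%), against 14.0% and 16.6% of the 157 barcodes. The single member that was higher in M2 by over 2-fold was Lym3-15, at 4.76-fold. Over the M2, Ccr2hi and Ccr2lo subsets together the highest share of a member was 1.13 to 4.76 times the lowest, with a median of 1.58, and 41 of 61 members stayed within 2-fold. With M1 macrophages included the median spread was 11.6-fold. These spreads were not computed over the 157 barcodes, so they are not shown to be particular to the members.

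Set against monocytes, the 3 subsets other than M1 were higher and M1 was lower. The median log2 ratio to monocytes of the same mouse was 1.41 ± 0.980 in M2, 1.97 ± 1.10 in Ccr2hi, 1.59 ± 1.08 in Ccr2lo and -1.66 ± 0.246 in M1 macrophages (SD, n = 3 each). The 3 higher ratios were smallest in mouse 1, with median folds of 1.22 for M2, 1.80 for Ccr2hi and 1.36 for Ccr2lo, against 3.52, 4.08 and 3.34 in mouse 2 and 4.33, 8.25 and 5.99 in mouse 3. The M1 fold was 0.317, 0.267 and 0.376 in mice 1, 2 and 3. The 4 ratios share their monocyte samples, whose values the choice used. Over all 157 barcodes found in all 8 populations the mean log2 ratio to monocytes was -1.07 ± 0.341 in M2, -0.49 ± 0.200 in Ccr2hi, -0.64 ± 0.574 in Ccr2lo and -0.40 ± 0.124 in M1 macrophages (SD, n = 3 each).

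Among single members M2 exceeded monocytes by over 4-fold in 18 of 61, Ccr2hi in 23 and Ccr2lo in 24, where the 157 barcodes gave 12.7%, 15.9% and 15.9%. Among barcodes with at least 0.1% in the subset or in monocytes the members lay below the background, with 18 of 52 for M2 (34.6% against 69.8%), 23 of 53 for Ccr2hi (43.4% against 70.1%) and 24 of 53 for Ccr2lo (45.3% against 72.8%), a background that includes barcodes found in macrophages alone. M1 lay over 2-fold below monocytes in 48 members (78.7%), against 38.9% of the 157 barcodes, and over 2-fold above in 1, Lym3-05, against 0.637%. Of the 28 members with at least 0.1% in M1 macrophages or monocytes 26 were over 2-fold lower in M1 (92.9%), against 32.1% of all barcodes of that level. Since the choice used the monocyte shares, these counts describe the members and test nothing. M1 lay below both monocytes and neutrophils in 46 members, between them in 13 and above both in 2. The median M1 share was 0.364 times the myeloid mean over the 3 mice. These values too use the blood myeloid shares by which the members were chosen. They were not computed over the 157 barcodes.

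Relative to the lymphocytes, the macrophages held less of most members. The median fold over the mean of B and T cells was 0.246 in M2, 0.287 in Ccr2hi, 0.232 in Ccr2lo and 0.0277 in M1 macrophages (from mean log2 ratios of 3 mice). The share lay between the myeloid and lymphoid means in 45 members for M2, 49 for Ccr2hi, 46 for Ccr2lo and 5 for M1 macrophages. It lay above the lymphoid mean in 7, 9, 7 and 0 members, and at or below the myeloid mean in 9, 3, 8 and 56. Of all 157 barcodes found in all 8 populations, the share lay between these means in 89 for M2, 88 for Ccr2hi, 80 for Ccr2lo and 49 for M1 macrophages. The nearest single blood population on the log scale was most often B cells for M2 (25 of 61 members, against 68 of the 157 barcodes), Ccr2hi (30, against 68) and Ccr2lo (29, against 64), and neutrophils for M1 (39, against 74). As shares of their totals, the B cell counts for M2, Ccr2hi and Ccr2lo lay near the background, so nearness to B cells was not particular to the members. All of the counts in this paragraph use the blood shares by which the members were chosen, so they are descriptions only.

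B-led and T-led members differed in how much of their lymphoid level they had in macrophages. The median fold of M2 over the lymphoid mean was 0.596 in the 11 members with over 4-fold more B than T cell share. It was 0.157 in the 28 members with over 4-fold more T than B cell share, and 0.197 in the 22 within 4-fold. Median M2 shares were 0.566% in B-led and 0.173% in T-led members, Ccr2hi 0.436% and 0.218%, Ccr2lo 0.508% and 0.231%, and M1 0.0421% and 0.0249%. The B and T cell shares chose the members, divided them and form the lymphoid mean, so the fold describes the members and tests nothing. Medians were taken over members of all mice together, and members are not replicates. The division was made after the values were seen. The B-led members came from mice 2 and 3 only, and mouse 3 had the higher macrophage shares, so class and mouse are partly mixed.

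Members kept a similar order in M2, Ccr2hi and Ccr2lo macrophages. Spearman's rho over the 27, 19 and 15 members of mice 1, 2 and 3 was 0.924, 0.889 and 0.793 between M2 and Ccr2hi, 0.827, 0.672 and 0.775 between M2 and Ccr2lo, and 0.882, 0.768 and 0.921 between Ccr2hi and Ccr2lo. For M1 macrophages rho was 0.483, 0.888 and 0.711 with neutrophils, and 0.481, 0.802 and 0.814 with monocytes. With M2 macrophages it was 0.480, 0.0456 and 0.589, which was lower in mice 2 and 3 but nearly the same in mouse 1. The order in M2 had a rho of 0.682, 0.309 and 0.643 with B cells, of 0.607, 0.0614 and 0.625 with monocytes, and of 0.175, -0.233 and 0.0893 with T cells. These are descriptions across barcodes of the same libraries, whose shares are bound to one total, and barcodes are not replicates.

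The lowest shares were set against what the same barcodes left in other mice. The highest share of a member in any sample of the other 2 mice had a median of 0.00298%, and it reached 0.01% for 14 members and 0.1% for 5. In M1 macrophages each of the 61 members had over 4 times its highest M1 share in the other mice, with a median of 21.8 times. The choice required 0.01% in M1 macrophages of a member's own mouse only, so it favoured such an excess. Reads carried over between libraries of one mouse cannot be measured this way, because they share barcodes. In M1 macrophages 16 members had a share under 1% of their own highest share in the mouse, in M2 3, in Ccr2lo 2 and in Ccr2hi 1, and whether carry-over contributed to these was not tested. With only the 43 members whose share was at least 1% of their highest in every population, the mean log2 ratio of M2 over M1 was 3.22 ± 1.42 and that of M1 over monocytes -1.67 ± 0.335 (SD, n = 3 each).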

How the data were processed

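Barcodes had been amplified from genomic DNA in 18 PCR cycles and 9 to 11 index cycles, per the labels' protocols. The deposited files hold 1 sample each, with a whole-number read count for every distinct barcode sequence, not normalised. For read trimming, filtering and counting, the tools are not given in the sources used here. Depth was 6808221 to 15745444 reads per sample. Counts were divided by the sample total to give shares, and populations were compared by ratios within a mouse (Python 3.11.15, numpy 2.4.6, pandas 2.3.3, scipy 1.17.1). Samples were grouped by cell type and mouse number in the titles. Repertoires of the same number overlapped by 0.410 on average and of different numbers by 0.0136, so a number was taken as 1 animal. A comparison of single barcodes has 1 sample per group, so no count test was run.

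The members and the choices of analysis were made with earlier results of these data known. In each mouse the text names the 4 members with the highest mean macrophage share, those with the highest and lowest M2 over M1 ratio, that with the highest lymphoid to myeloid ratio and that just inside the 4-fold limit, and it gives the ratio of the barcode just outside. Lym1-06, Lym1-09, Lym1-20, Lym2-11 and Lym3-05 were named after their values were seen. Alternatives were thinning to the smallest total, merging barcodes 1 mismatch from one 10 times as abundant, removing barcodes 100 times as abundant in another mouse, other limits of presence and ratio, the alternating pattern only, adding 0.01%, means for medians, and leaving out each mouse. Choosing and merging were tested on simulated data. The simulation planted members at the same profile and held counting and sequence errors but no PCR noise or carry-over, so it checks the code only.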

Additional observations from a re-analysis of the deposited data

Results flagged for a closer look

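The macrophage subsets went opposite ways against monocytes. In each of the 3 mice the members' median was above monocytes in M2, Ccr2hi and Ccr2lo macrophages and below them in M1 macrophages. The mean log2 ratios to monocytes exceeded that of M1 by 3.07 in M2, 3.63 in Ccr2hi and 3.25 in Ccr2lo macrophages. The choice of the members used the monocyte shares, so ratios to monocytes are partly set by it. Monocytes enter both ratios of each difference, so the difference for M2 is no separate observation from M2 over M1 (mean log2 ratio 3.07). The difference was not tested.

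Of the members, 5 reached 0.1% in a mouse in which they were not chosen. Lym3-01, Lym3-02 and Lym3-15 had 0.142%, 0.141% and 0.138% of T cell reads of mouse 2, which is 0.927%, 0.952% and 0.930% of their T cell shares in mouse 3. Among the 17 barcodes with at least 1% of T cell reads in mouse 3, this percentage was 0.897% to 1.39%, with a median of 0.957%. The median of the same percentage for barcodes at 1% or more was taken in each of 384 pairs of samples from different mice. These pair medians had a median of 0.145%. The highest pair median was 1.58%, for Ccr2lo macrophages of mouse 3 in the same T cell sample of mouse 2. Single barcodes of that pair had 0.0488% to 10.7%. Whether reads were carried over between these libraries was not tested, so the shares need not stand for cells of mouse 2. In the other populations of mouse 2 these 3 members had at most 0.0101%. Lym3-04 had another pattern in mouse 1, with 0.534% of T cell, 0.461% of B cell, 0.465% of Ccr2hi, 0.319% of Ccr2lo and 0.0941% of M2 macrophage reads, but 0.00232% of M1 macrophage, 0.0209% of monocyte and 0.0189% of neutrophil reads. Lym2-11 had 0.118% of B cell reads in mouse 3, with 0.0424% of Ccr2hi, 0.0483% of Ccr2lo and 0.0124% of M2 macrophage reads and 0.00300% of T cell reads there.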

How the results depend on the processing

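Each result was computed again under 14 to 17 other settings, which gave 203 values for 13 results, and 188 of these stayed within 1 SD over the mice, or within 1.5 times for a count. The mean log2 ratio of M2 over M1 was 2.60 to 3.72 over the settings, and that of M1 over monocytes -1.81 to -1.38, the upper value with 0.01% added to both shares. Thinning, merging and removal of barcodes of other mice each left the same 61 members. With presence at 0.005% there were 93 members, of which 68 were over 4-fold higher in M2 than in M1, and with presence at 0.02% there were 35, of which 24 were, with a summed M2 share of 4.89%. Requiring 4-fold of B and T cells each left 22 members, of which 19 were over 4-fold higher in M2, with summed shares of 3.08% in M2, 4.70% in Ccr2hi, 3.99% in Ccr2lo and 0.339% in M1 macrophages. These changes follow from the smaller or larger choice. Leaving out each mouse gave 34 to 46 members, of which 25 to 30 were over 4-fold higher in M2, and a mean log2 ratio of Ccr2hi over Ccr2lo of -0.000551 to 0.24, so that its sign rests on mouse 3. Keeping 1 barcode of each pair of members with a nearly constant ratio, or only members with every share at least 1% of their highest, was added after the data were seen and left 59 and 43 members. The reported ratios are paired, since each was taken within a mouse. With no replicate block, as the difference of unpaired median log2 shares averaged over mice and added after the data were seen, M2 over M1 was 3.45, Ccr2hi over Ccr2lo 0.15 and M1 over monocytes -1.81. No p-value is given for these scores, since the members were chosen with results known. Counting error is small beside the folds reported, but the number of sorted cells behind the shares is not given, and 3 mice limit what can be said of any mean.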
